A study of Sus scrofa with 4 samples.

Results

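The genes described here are the molecular chaperones and co-chaperones of the heat shock families in porcine metaphase II (MII) oocytes. They were taken by symbol: every row with values whose gene symbol begins with HSPA, HSPB, HSPD, HSPE, HSPH, HSP90 or DNAJ, or is one of BAG1 to BAG6, CCT2 to CCT8 or TCP1. The rule found 84 genes among the 16050 genes with values, and 66 of them passed the filter used for testing, 1 FPKM or more in at least 2 libraries. FPKM is the number of sequenced fragments scaled to the length of the transcript and to the size of the library, and every level below is in this unit. It allows for transcript length when genes are compared, but libraries can still differ in scale, so the main counts were repeated after rescaling. Another 4 rows match by symbol but hold no values, namely CCT8L2, DNAJB7, DNAJC5G and HSPB2.

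The study asked what copper (Cu) does to the maturing oocyte. Cumulus-oocyte complexes from slaughterhouse ovaries were matured in vitro for 44 h, either in maturation medium without added copper (the Control group, 0 μg/mL) or in the same medium with 25 μg/mL Cu added as a copper sulfate solution (the Cu group), and mature oocytes of both groups were collected. Each library was made from 3 oocytes after Smart-seq2 amplification, and 2 libraries per group were analysed here, Control 1 and 2 and Cu 1 and 3, of the 3 per group that the methods describe. Dose, time and number of oocytes come from the study's methods, whereas group and replicate come from the sample labels, and every direction below rests on those labels. No allele or strain is given, and nothing states whether the libraries of a group came from separate collections of ovaries, so the p-values measure only the spread between these libraries. The oocytes sequenced from the Cu group are those that reached maturity in its presence, with their cumulus cells exposed as well, and apart from copper the medium was shared.

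Chaperones hold unfolded proteins and help them to fold. HSP70 proteins bind short exposed stretches of a client in cycles driven by ATP, J-domain proteins (the DNAJ families) deliver the client and trigger the hydrolysis of ATP, and nucleotide exchange factors such as the BAG proteins and HSPH1 reopen the cycle. HSP90 takes over partly folded clients such as kinases, small HSPs hold denatured proteins without using ATP, and the chaperonins enclose a client in a barrel, the HSPD1 barrel with its HSPE1 lid in mitochondria and the CCT ring (also called TRiC, whose subunits are TCP1 and the CCT proteins) in the cytosol, where actin and tubulin are its best known clients. Part of the set is transcribed under the control of heat shock factors when proteins are damaged. A fully grown oocyte transcribes little, and its mRNA was largely laid down earlier in growth, so a level here reflects stored and remaining mRNA, and a change in mRNA per oocyte cannot be told apart from a change in how well it was copied and sequenced.

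The libraries held oocyte RNA: all 15 oocyte genes of a marker list had values, and their summed level was 8027 and 9172 FPKM in the Control libraries and 10931 and 9673 FPKM in the Cu libraries. Of these markers, 6 of the 15 (GDF9, OOEP, TLE6, KHDC3L, ZAR1 and FIGLA), or 40%, were higher in both Cu libraries and none was lower. All genes tested gave 25.4% higher and 13.4% lower. The median log2 fold change of the markers was 0.59, and their part in the results below was not tested. Of 16 cumulus and granulosa cell markers 8 had values, with a summed level of 11.7 to 18.0 FPKM that came mostly from FST. VCAN reached 1.43 FPKM, TNFAIP6 0.97 FPKM and STAR 0.41 FPKM, and PTX3, PTGS2, CYP19A1 and INHBA did not exceed 0.1 FPKM. The 2 of 6 blood and immune markers with values summed to 0.09 to 0.41 FPKM. Cu 1 stood apart from the other libraries, with 9364 genes at 1 FPKM or more compared with 7923, 8162 and 8122 in Control 1, Control 2 and Cu 3. It was the highest of the 4 libraries in 51% of all 8541 genes tested, and the median log2 fold change of Cu against Control over all genes tested was 0.16. Each fold change below was computed on log2(FPKM + 1) and should be read against this shift. Read numbers cannot be recovered from FPKM, so the depth of the libraries is unknown.

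Together the 84 genes held 6353 FPKM in Control 1, 7260 FPKM in Control 2, 11183 FPKM in Cu 1 and 11742 FPKM in Cu 3. This was 0.972% and 1.18% of all FPKM in the Control libraries, and 1.69% and 1.75% in the Cu libraries. A pair of genes made up this gap, HSPE1 and DNAJC15. Without them the sum was 3599 and 3739 FPKM in the Control libraries, 4335 FPKM in Cu 1 and 3554 FPKM in Cu 3, so that Cu 3 lay just below both Control libraries. Of the 84 genes, 60 had 1 FPKM or more in all 4 libraries and 10 had 100 FPKM or more in all 4 libraries: HSPE1, DNAJC15, DNAJA1, CCT8, HSP90AB1, HSP90AA1, HSPA8, DNAJC8, CCT2 and DNAJC17. At the other end DNAJB3 was listed at 0 in all 4 libraries, and the 18 genes that did not pass the filter had no value above 3.34 FPKM. The highest value of 12 of these 18 was in Cu 1.

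**Figure D1:**
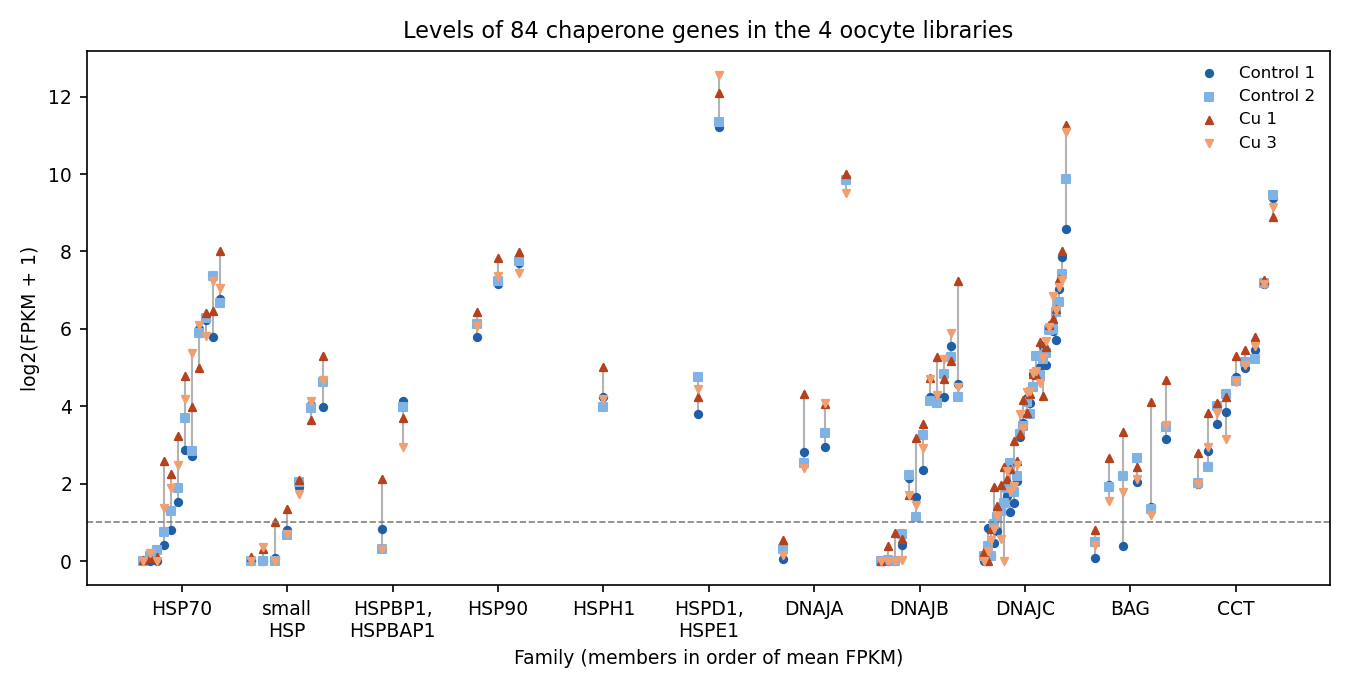
Level of each of the 84 chaperone genes, as log2(FPKM + 1) on the vertical axis, in Control 1 and 2 (blue) and Cu 1 and 3 (red), grouped by family and ordered by mean FPKM within a family. The grey line spans the 4 libraries of a gene and the dashed line marks 1 FPKM. HSPE1, DNAJA1, DNAJC15 and CCT8 stand far above the other members of their families.

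No chaperone gene was called at an adjusted p of 0.05, where the background over all 8541 genes was 0%, and limma gave the chaperone genes adjusted p-values of 0.631 or more. Before adjustment 8 of 66 genes had a p of 0.05 or less, all higher in the Cu group, compared with a background of 7.01% in either direction. This was so for the values as deposited. After each of the 3 scalings 6 genes were higher at this limit, and HSPBAP1 was lower, joined by CCT8 after quantile normalization. Of all genes, 4.23% to 4.85% were higher and 2.68% to 3.37% lower at this limit after these scalings. DNAJA2 lost the limit under all 3 scalings, HSPA2 under quantile normalization and HSPE1 under upper-quartile and median-of-ratios scaling. With a log2 fold change of 1.5 in addition, HSPA12A and DNAJC15 were higher (background 1.76%) and none was lower (background 0.117%). The groups were separated, with Cu 1 and Cu 3 both above the higher Control library, in 26 of the 66 genes, 39.4%, where the background was 25.4%. They lay below the lower Control library in 3 genes, 4.55%, where the background was 13.4%. These 3 were CCT8, HSPBAP1 and DNAJB14. An exact permutation test of a single gene, 2-sided, has 0.333 as its smallest possible p in this design. No change is therefore claimed for any single gene, and "higher" and "lower" below describe these 4 libraries.

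The median log2 fold change of the 66 genes was 0.33, with 50 genes above 0, compared with 0.16 over all genes tested. When the libraries were rescaled to each other the median of all genes came to between -0.05 and 0.01, and that of the chaperone genes to between 0.14 and 0.16. The split moved as well. It was 26 genes higher and 3 lower as deposited, 18 higher and 9 lower after upper-quartile or median-of-ratios scaling, and 16 higher and 9 lower after quantile normalization, with backgrounds of 19.1%, 19.2% and 16.7% higher and of 20.1%, 19.8% and 22.8% lower. Cu 1 was the highest library in 42 of the 66 genes, or 63.6%. Against the mean of the Control libraries the median difference of the chaperone genes was 0.46 in Cu 1 and 0.14 in Cu 3, and that of all genes was 0.31 and 0.0023. The part of this library in the results was not tested. For each gene of the families with a printed fold change, the smallest value on leaving out 1 library is given where it is over 1.5 times smaller.

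**Figure D2:**
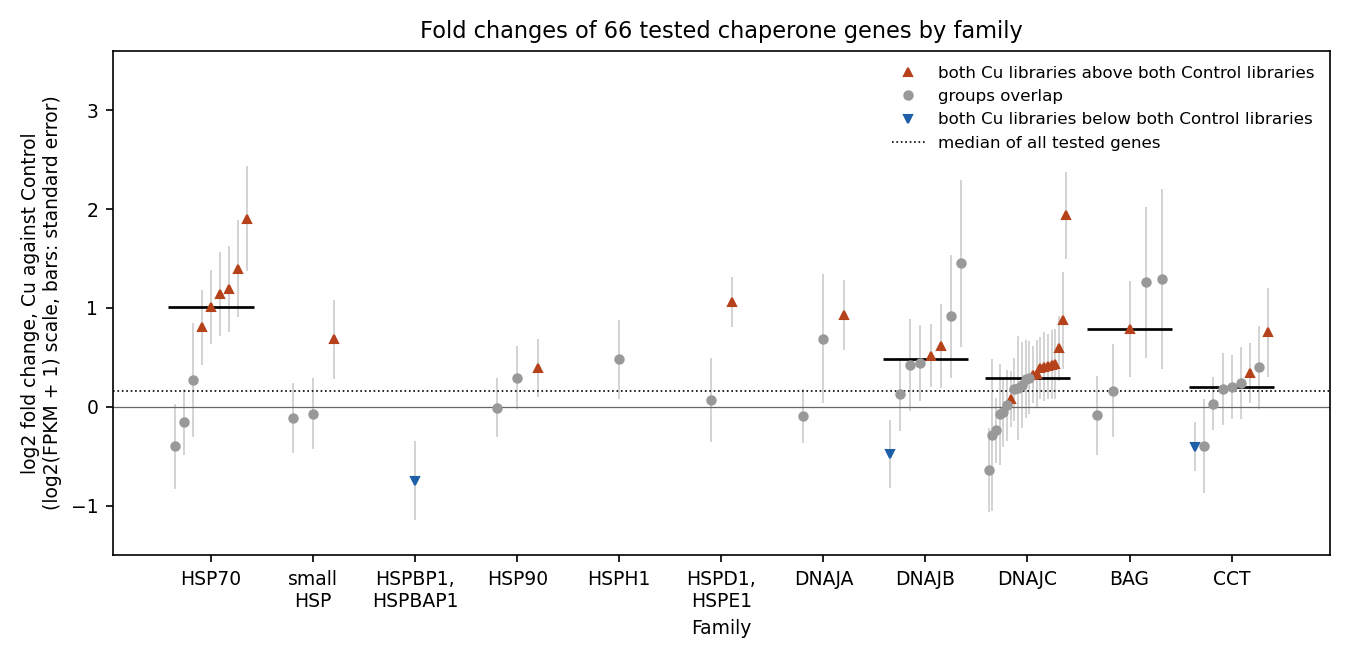
Fold change of the 66 tested chaperone genes, Cu against Control, on the log2(FPKM + 1) scale (vertical axis, bars are standard errors), ordered within each family. Red and blue triangles mark genes whose Cu libraries lay both above or both below the Control libraries, black lines are medians of families with 5 or more tested genes, and the dotted line is the median of all genes tested. The HSP70 median is the highest of the families drawn, at 1.01.

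HSP70 was the family with the largest median among those with 5 or more tested genes. Of its 9 tested genes (12 with values), 5 were at an unadjusted p of 0.05 or less, where the share of all genes was 7.01%. In 6 genes (66.7%) both Cu libraries were higher than both Control libraries, where all genes gave 25.4%. The median log2 fold change was 1.01. These counts take in HSPA1L, which passed the filter only through the Cu libraries. With 1 FPKM required in all 4 libraries, 3 of 7 were at this limit, 4 were higher in both Cu libraries and the median was 0.80. Under that filter 5.53% of all genes were higher at this limit, and 24.4% were higher in both Cu libraries. The 6 genes stayed separated under each of the 3 scalings, where the median was 0.76 to 0.90. HSPA9 became lower in both Cu libraries. Of all genes, 16.7% to 19.2% were higher and 19.8% to 22.8% lower after these scalings. Fewer genes were at an unadjusted p of 0.05 when Control 1, Control 2 or Cu 1 was left out, and the median without Cu 1 was 0.77. Without the filter 2 of 12 were at this limit and higher, where all genes gave 3.78%. The family is led by HSPA8, the constitutive HSP70 of the cytosol and nucleus. HSPA8 was at 108.89 and 101.40 FPKM in the Control libraries, 255.09 FPKM in Cu 1 and 133.11 FPKM in Cu 3 (log2 fold change 0.80, SE 0.38, adjusted p 0.708 by limma). Both Cu libraries were above the Control range, but most of the difference lay in Cu 1, and without it the log2 fold change was 0.34.

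HSPA5, the HSP70 of the endoplasmic reticulum also known as BiP, was at 6.36 and 11.90 FPKM in the Control libraries and at 26.31 and 17.21 FPKM in the Cu libraries (log2 fold change 1.19, SE 0.44, adjusted p 0.656, and 0.79 without Control 1). HSPA4, which belongs to the HSP110 branch and acts as a nucleotide exchange factor for HSP70, went from 1.86 and 2.71 FPKM to 8.33 and 4.55 FPKM (1.14, SE 0.42, adjusted p 0.656). In both genes Cu 1 was the highest library and Cu 3 the next. HSPA12A, a divergent HSP70, had the largest log2(FPKM + 1) fold change of the family in the fit of all 4 libraries, with 5.52 and 6.22 FPKM in the Control libraries and 14.72 and 40.86 FPKM in the Cu libraries (1.90, SE 0.53, unadjusted p 0.011, adjusted p 0.641). Here Cu 3 was the highest library, and the mean of the Cu libraries was 4.73 times that of the Control libraries. Without Cu 3 its log2 fold change was 1.2, below that of HSPA1L, which was also the larger with a pseudocount of 0.1. In the RefSeq annotation HSPA12A overlaps ENO4, and reads of overlapping genes could not be assigned with certainty because the strand setting of the counting is not given in the sources used here.

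HSPA2, an HSP70 best known from male germ cells, was at 0.75 and 1.47 FPKM in the Control libraries and at 3.74 and 2.71 FPKM in the Cu libraries (1.01, SE 0.38, adjusted p 0.656). HSPA1L, which lies beside the stress-inducible HSP70 genes in the major histocompatibility region, was at 0.33 and 0.67 FPKM, and at 5.0 and 1.57 FPKM in the Cu libraries (1.40, SE 0.49, adjusted p 0.656). Without Cu 1 the value was 0.79, and it was 0.56 by the authors' means. Their Control mean, 1.23 FPKM, lay above both Control libraries analysed here. If it was taken over 3 libraries, the Control library outside these lay above Cu 3, and the groups then overlap. HSPA1L passed the filter only through the Cu libraries, so it could be tested only because it was higher there. RefSeq places it over the porcine HSP70.2 gene, whose own row was at 21.46 and 14.12 FPKM in the Control libraries and 58.16 and 27.75 FPKM in the Cu libraries. In both rows Cu 1 was the highest library, and fragments of one gene can be counted for the other.

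The other tested HSP70 genes overlapped between the groups. HSPA9, the mitochondrial HSP70 (mortalin), was at 74.46 and 77.25 FPKM in the Control libraries, 84.32 FPKM in Cu 1 and 55.06 FPKM in Cu 3. HSPA14, the HSP70 partner of the ribosome-associated complex, varied most between the Control libraries, from 54.15 to 164.43 FPKM, and the Cu libraries fell inside that range at 86.57 and 150.63 FPKM. HSPA4L, a relative of HSPA4, was at 62.78 and 58.09 FPKM, 30.71 FPKM in Cu 1 and 67.39 FPKM in Cu 3. Unlike HSPA8 and HSPA5, it was lowest in Cu 1. The ratio of HSPA8 to HSPA9 FPKM was 1.46 and 1.31 in the Control libraries and 3.03 and 2.42 in the Cu libraries, so relative to HSPA9 the level of HSPA8 was higher in both Cu libraries.

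The J-domain proteins gave 33 tested genes, with 14 (42.4%) higher in both Cu libraries and 1 (3.03%) lower, where all genes gave 25.4% and 13.4%. The median log2 fold change was 0.33. These shares hold for the values as deposited. Under the 3 scalings DNAJA and DNAJB kept 1 and 2 genes higher, but DNAJC went from 11 to 3 or 4. Of all genes, 16.7% to 19.2% were higher then. Their levels ran from below 1 FPKM to 2446 FPKM. DNAJA1, a cytosolic partner of HSPA8, was among the most abundant chaperone mRNAs at 929.92 and 920.43 FPKM in the Control libraries and 1029.33 and 729.25 FPKM in Cu 1 and Cu 3. The Control libraries were nearly equal, and the Cu libraries lay on either side of them. The ratio of DNAJA1 to HSPA8 was 8.54 and 9.08 in the Control libraries and 4.04 and 5.48 in the Cu libraries.

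DNAJA2, another cytosolic partner of HSPA8, was higher in both Cu libraries, at 15.55 and 15.89 FPKM compared with 6.69 and 8.99 FPKM in the Control libraries (0.93, SE 0.35, unadjusted p 0.038, adjusted p 0.665). The Cu libraries differed by less than the Control libraries did, and without Cu 1 the log2 fold change was 0.95. DNAJA3, a mitochondrial J protein, was at 6.03 and 4.78 FPKM in the Control libraries, 18.79 FPKM in Cu 1 and 4.33 FPKM in Cu 3, so Cu 1 alone was high.

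In the DNAJB family, 2 of 8 tested genes were higher in both Cu libraries and 1 was lower. These shares, 25% and 12.5%, are close to those of all genes, 25.4% and 13.4%. The median log2 fold change was 0.48, or 0.13 without Cu 1. DNAJB1, the heat-inducible HSP40, was at 18.04 and 16.69 FPKM in the Control libraries and at 25.35 and 25.25 FPKM in the Cu libraries (0.52, SE 0.32, adjusted p 0.756). Each group was tight and the groups did not overlap. DNAJB6, a suppressor of protein aggregation, was separated by a narrower margin, with 17.72 and 16.01 FPKM compared with 37.42 FPKM in Cu 1 and 18.54 FPKM in Cu 3, a log2 fold change of 0.13 without Cu 1. DNAJB14, a J protein anchored in the endoplasmic reticulum membrane, was lower in both Cu libraries, at 2.29 and 2.26 FPKM compared with 3.44 and 3.66 FPKM (-0.47, SE 0.34, adjusted p 0.780).

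The other abundant DNAJB genes overlapped. DNAJB4, a heat-inducible relative of DNAJB1, was at 45.65 and 37.52 FPKM in the Control libraries and 35.00 and 58.68 FPKM in Cu 1 and Cu 3. DNAJB9, an inducible J protein of the endoplasmic reticulum, was at 17.71 and 27.48 FPKM, and at 25.25 and 36.38 FPKM in Cu 1 and Cu 3. DNAJB13, a protein of the cilium and sperm axoneme, was at 22.95 and 17.99 FPKM in the Control libraries, 148.63 FPKM in Cu 1 and 21.70 FPKM in Cu 3. The value in Cu 1 was therefore the only one that stood out. RefSeq places DNAJB13 over UCP2, and the counts of the pair may be mixed.

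The DNAJC family holds J proteins of many compartments and gave 22 tested genes. The Cu libraries were both higher in 11 of them and both lower in none, but under the 3 scalings only 3 or 4 of the 22 stayed higher, no larger a share than the 16.7% to 19.2% of all genes, and 1 became lower. The median of 0.29 came to between 0.09 and 0.13. DNAJC15 is a J protein of the inner mitochondrial membrane tied to protein import. It had the largest log2(FPKM + 1) fold change of any tested chaperone gene in the fit of all 4 libraries. HSPA12A was larger with a pseudocount of 0.1 (2.05 compared with 1.94) and by the authors' means (1.92 compared with 1.03). The same held without Control 1 or without Cu 1. DNAJC15 was at 383.49 and 936.52 FPKM in the Control libraries and at 2446.28 and 2159.81 FPKM in the Cu libraries (1.94, SE 0.44, unadjusted p 0.0045, adjusted p 0.631). The mean of the Cu libraries was 3.49 times that of the Control libraries. The Control libraries themselves differed by more than the Cu libraries, and without Control 1 the log2 fold change was 1.29. By level it ranked 234th and 79th among all genes in the Control libraries, and 28th and 38th in the Cu libraries. RefSeq places DNAJC15 at chr11:24011530-24087156 on Sscrofa11.1, with a pseudogene inside its span.

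DNAJC19, the J protein of the import motor at the same membrane, was also higher in both Cu libraries, but by less, with 60.08 and 62.77 FPKM in the Control libraries and 75.40 and 114.88 FPKM in the Cu libraries. Its direction was the opposite by the authors' means. The ratio of DNAJC15 to DNAJC19 was 6.38 and 14.9 in the Control libraries and 32.4 and 18.8 in the Cu libraries. The other abundant members of the family differed little. DNAJC8, a J protein associated with splicing, was at 229.16 and 170.08 FPKM in the Control libraries and 258.59 and 153.77 FPKM in the Cu libraries, and thus overlapped. DNAJC17, also a nuclear J protein, was at 129.08 and 102.69 FPKM, and 155.08 and 134.28 FPKM in the Cu libraries (0.32, SE 0.29, adjusted p 0.810, and 0.16 without Control 2).

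Several DNAJC genes were separated by margins that were small beside their levels. DNAJC21, a factor of ribosome biogenesis, was at 63.19 and 61.19 FPKM in the Control libraries and 67.15 and 64.60 FPKM in the Cu libraries (0.08, SE 0.28, adjusted p 0.957, and 0.05 without Cu 1). That is below the shift of all genes, and its sign turned under each scaling, to between -0.09 and -0.05. DNAJC16 was at 0.72 and 1.22 FPKM, and at 1.70 and 1.25 FPKM in the Cu libraries (0.33, SE 0.34, adjusted p 0.834, and 0.15 without Control 1). The separation of DNAJC16 thus rests on 0.03 FPKM. The lowest log2 fold change in the family, among overlapping groups, was that of DNAJC24, an enzyme partner in diphthamide synthesis, with 45.65 and 36.48 FPKM in the Control libraries, 18.10 FPKM in Cu 1 and 36.77 FPKM in Cu 3.

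**Figure D3:**
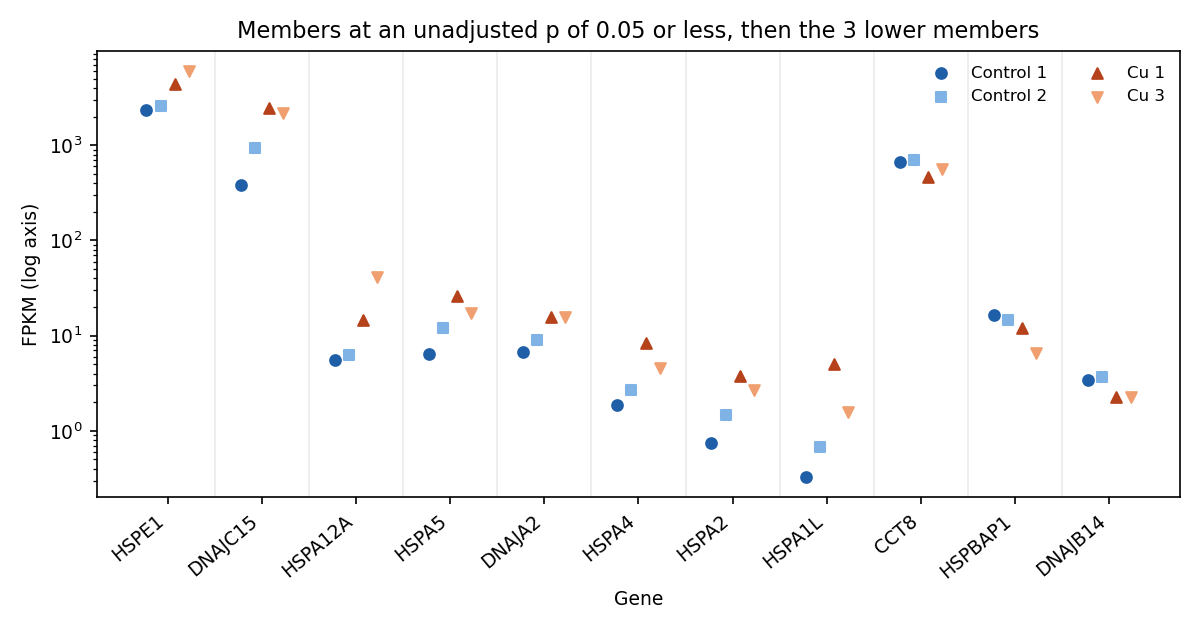
FPKM on a log axis in each library for the 8 chaperone genes at an unadjusted p of 0.05 or less, followed by the 3 genes whose Cu libraries lay below both Control libraries. Blue symbols are Control 1 and 2 and red symbols Cu 1 and 3. The levels run from 0.33 FPKM for HSPA1L in Control 1 to 6028 FPKM for HSPE1 in Cu 3.

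Among the nucleotide exchange factors the difference lay mainly in Cu 1. Over the 5 tested BAG genes the median log2 fold change was 0.79, and -0.16 without Cu 1. BAG1, which joins HSP70 to the proteasome, was at 7.92 and 10.06 FPKM in the Control libraries, 24.81 FPKM in Cu 1 and 10.43 FPKM in Cu 3 (0.79, SE 0.48, adjusted p 0.756, and 0.20 without Cu 1). Cu 3 exceeded Control 2 by only 0.37 FPKM. BAG2, an inhibitor of the ubiquitin ligase CHIP, showed the pattern most plainly, with 1.61 and 1.52 FPKM in the Control libraries, 16.19 FPKM in Cu 1 and 1.3 FPKM in Cu 3. BAG3, the stress-inducible member that links HSP70 to autophagy, was at 0.32 and 3.55 FPKM, 9.06 FPKM in Cu 1 and 2.43 FPKM in Cu 3. In BAG2 and BAG3 Cu 3 was thus no higher than Control 2. BAG4 was at 3.14 and 5.36 FPKM in the Control libraries and 4.4 and 3.33 FPKM in the Cu libraries. HSPH1, the inducible HSP110, was at 18.01 and 14.81 FPKM, 31.02 FPKM in Cu 1 and 17.28 FPKM in Cu 3, so it overlapped as well.

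The HSP90 genes were abundant and moved little. HSP90AA1, the inducible cytosolic form, was at 142.56 and 150.97 FPKM in the Control libraries, 227.49 FPKM in Cu 1 and 163.56 FPKM in Cu 3 (0.39, SE 0.29, adjusted p 0.785, and 0.16 without Cu 1). It was separated as deposited, but not after quantile normalization. HSP90AB1, the constitutive cytosolic form, was at 208.07 and 213.80 FPKM, and at 253.05 and 173.51 FPKM in Cu 1 and Cu 3, on either side of the Control libraries. HSP90AB1 was the more abundant of the pair in every library, and the ratio of HSP90AB1 to HSP90AA1 was 1.46 and 1.42 in the Control libraries and 1.11 and 1.06 in the Cu libraries. HSP90B1, the form of the endoplasmic reticulum, was at 53.84 and 69.41 FPKM in the Control libraries and 85.06 and 66.61 FPKM in the Cu libraries, which overlapped.

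Small HSPs were expressed at low levels, with 3 of 7 genes tested. HSPB1 (HSP27), which binds denatured proteins and actin filaments, was at 14.81 and 23.73 FPKM in the Control libraries and 38.02 and 24.80 FPKM in Cu 1 and Cu 3 (0.68, SE 0.40, adjusted p 0.75, 0.38 without Cu 1 and 0.36 without Control 1). Cu 3 exceeded Control 2 by 1.07 FPKM. HSPB8, the partner of BAG3, was at 2.77 and 3.10 FPKM, and at 3.24 and 2.31 FPKM in the Cu libraries. HSPB11, which despite its symbol is a component of intraflagellar transport, was at 15.47 and 14.49 FPKM, and at 11.48 and 16.51 FPKM in the Cu libraries. Both overlapped between the groups. HSPBAP1, named for its binding to HSPB1, had the most negative log2 fold change among the tested chaperone genes when all 4 libraries were used, with 16.55 and 14.77 FPKM in the Control libraries and 11.90 and 6.65 FPKM in the Cu libraries (-0.74, SE 0.40, adjusted p 0.728). It was -0.37 without Cu 3 and -1.12 without Cu 1.

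The genes of the mitochondrial chaperonin differed widely in level. HSPE1 (HSP10), the lid of the chaperonin, was the most abundant chaperone mRNA in every library, at 2370.47 and 2584.92 FPKM in the Control libraries and 4401.70 and 6028.23 FPKM in the Cu libraries (1.06, SE 0.25, unadjusted p 0.0058, adjusted p 0.631). The Control libraries were close to each other, and the mean of the Cu libraries was 2.10 times theirs. It ranked 30th and 27th among all genes in the Control libraries, and 10th and 8th in the Cu libraries. The authors' own group means were 3505 FPKM for Control and 4810 FPKM for Cu. Their Control mean lay above both Control libraries analysed here, so a Control library outside these must have been higher still. By their means the log2 ratio of the groups was 0.46, compared with 1.06. If each mean was taken over the 3 libraries per group that the methods describe, the Control library outside these lay above Cu 1. The HSPE1 groups then overlap.

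HSPD1 (HSP60), the barrel, was at 12.92 and 25.79 FPKM in the Control libraries and 17.75 and 20.83 FPKM in the Cu libraries, inside the Control range. The ratio of HSPE1 to HSPD1 was 183 and 100.2 in the Control libraries and 248 and 289 in the Cu libraries. The 2 genes lie next to each other in RefSeq, HSPD1 at chr15:101360355-101373498 and HSPE1 at chr15:101374019-101376146 on Sscrofa11.1, with 520 bases between them. Both barrel and lid are scaled to transcript length in FPKM, and how far copies of such a short mRNA elsewhere in the genome add to the value of HSPE1 is not known.

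The cytosolic chaperonin CCT is built from 8 different subunits in equal numbers, and its mRNAs were far from equal. CCT8 was the highest in every library, at 667.12 and 698.47 FPKM in the Control libraries and 469.50 and 568.10 FPKM in the Cu libraries (-0.40, SE 0.25, adjusted p 0.757, and -0.26 without Cu 1). Both Cu libraries were lower, and it was the only one of the 8 subunits for which this held in the deposited values. Of the summed level of the 8 subunits CCT8 made up 71.3% and 71.6% in the Control group, but 58.9% in Cu 1, with 67.9% in Cu 3. CCT2 came next, at 142.67 and 145.41 FPKM in the Control libraries and 153.10 and 142.11 FPKM in the Cu libraries, which is nearly constant. CCT4 was the lowest, at 2.94 and 3.06 FPKM, 5.98 FPKM in Cu 1 and 2.99 FPKM in Cu 3. The ratio of CCT8 to CCT4 was therefore 227 and 228 in the Control group but 78.5 in Cu 1, and it was 190 in Cu 3.

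The order of the 8 subunits was CCT8, CCT2, TCP1, CCT5, CCT3, CCT7, CCT6A and CCT4 in Control 1, Control 2 and Cu 1, and in Cu 3 only CCT6A and CCT7 changed places. TCP1, the alpha subunit, was at 42.80 and 36.11 FPKM in the Control libraries and 54.19 and 46.43 FPKM in the Cu libraries (0.34, SE 0.31, adjusted p 0.810, and 0.22 without Control 2). In RefSeq TCP1 overlaps ACAT2. CCT5 was at 30.61 and 34.36 FPKM, and 42.71 and 32.72 FPKM in the Cu libraries. CCT3 was at 26.01 and 24.33 FPKM, and 38.05 and 23.48 FPKM in the Cu libraries. Both overlapped, since Cu 3 stayed within or just under the Control range. CCT7 was at 13.41 and 19.09 FPKM, 17.76 FPKM in Cu 1 and 7.91 FPKM in Cu 3. CCT6A was at 10.63 and 15.16 FPKM, and 16.09 and 13.20 FPKM in the Cu libraries. CCT6B, a paralogue of CCT6A and not counted among the 8 subunits, was higher in both Cu libraries, at 6.17 and 4.38 FPKM in the Control libraries and 13.23 and 6.70 FPKM in the Cu libraries (0.75, SE 0.45, adjusted p 0.75, and 0.31 without Cu 1). Over the 9 CCT genes the median log2 fold change was 0.20, close to that of all genes, and -0.0034 without Cu 1.

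**Figure D4:**
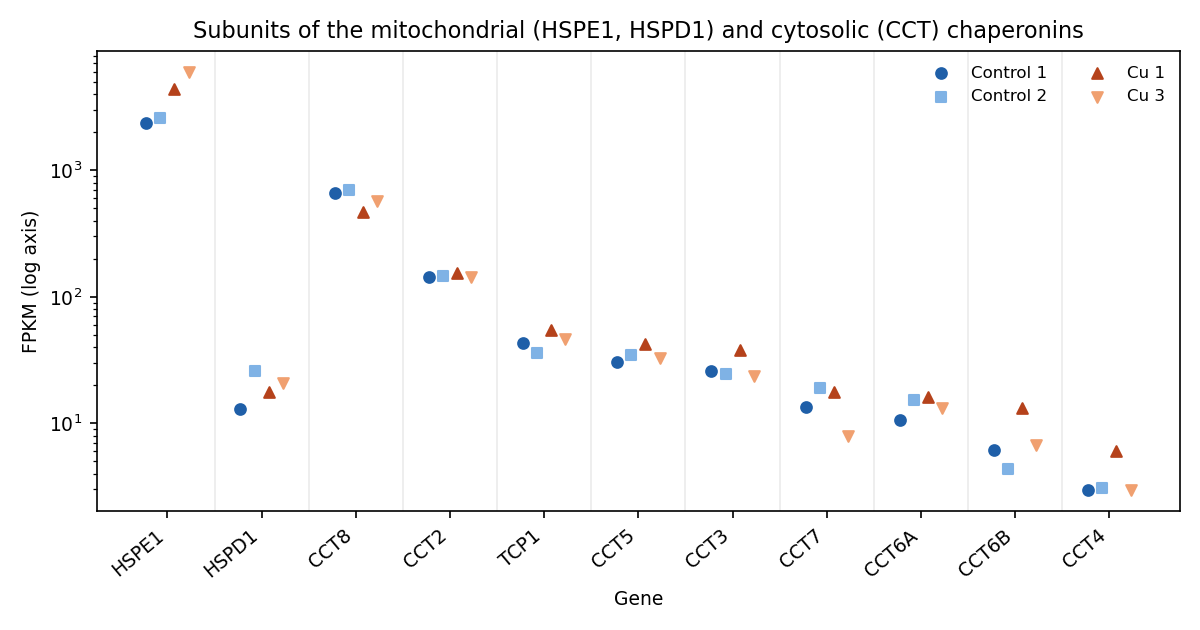
FPKM on a log axis of the mitochondrial chaperonin genes HSPE1 and HSPD1 and of the 9 CCT genes in Control 1 and 2 (blue) and Cu 1 and 3 (red). HSPE1 lay at least 100.2 times above HSPD1 in every library, and CCT8 at least 78.5 times above CCT4.

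By compartment, the mitochondrial members (HSPA9, HSPD1, HSPE1, DNAJA3, DNAJC11, DNAJC15, DNAJC19 and DNAJC30) summed to 2909 and 3694 FPKM in the Control libraries and 7050 and 8384 FPKM in the Cu libraries. Of the 7 tested, HSPE1, DNAJC15 and DNAJC19 (42.9%) were higher in both Cu libraries, where all genes gave 25.4%. DNAJC19 had the opposite direction by the authors' means. HSPE1 and DNAJC15 carried the sum. The members of the endoplasmic reticulum (HSPA5, HSPA13, HSP90B1, DNAJB9, DNAJB11, DNAJB12, DNAJB14, DNAJC1, DNAJC3 and DNAJC10) summed to 127 and 160.02 FPKM in the Control libraries and 212 and 169 FPKM in the Cu libraries. Of the 8 tested, HSPA5 and DNAJC10 (25%) were higher in both Cu libraries and DNAJB14 (12.5%) was lower, where all genes gave 25.4% and 13.4%. The median log2 fold change was 0.36. This list is not a full one, and its shares depend on which genes are on it. DNAJC14, DNAJC16 and DNAJC18, which were higher in both Cu libraries, were left off it. Both groupings were written after the values had been seen.

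Genes of the heat shock response were counted from a list of 17, of which 15 had values, since HSPA1A and HSPA1B have no row with values. The porcine HSP70.2 row given above was counted with the other pathway genes. Of the 14 tested, 6 were higher in both Cu libraries as deposited, namely HSPA1L, HSPE1, HSPA8, HSPB1, DNAJB1 and HSP90AA1. This was 42.9%, where all genes gave 25.4%, and none was lower. After upper-quartile or median-of-ratios scaling 6 were higher and 3 lower (DNAJA1, HSP90AB1 and HSPB8). After quantile normalization 5 were higher and 1 lower (HSPB8). Of all genes, 16.7% to 19.2% were higher and 19.8% to 22.8% lower after these scalings. HSPE1 and HSPA1L were higher at an unadjusted p of 0.05 or less, HSPA1L having entered the test only through the Cu libraries. Of all genes, 5.58% were higher at this limit. With 1 FPKM required in all libraries, 12 genes were tested, 5 were higher in both Cu libraries and HSPE1 alone was at this limit, with a median log2 fold change of 0.26. Under that filter 24.4% of all genes were higher in both Cu libraries, and 5.53% were higher at this limit. Over the 14 genes the median log2 fold change was 0.44, and 0.26 to 0.28 after scaling or without Cu 1. HSPA6, which is strictly stress-inducible in human cells, was listed at 0 in Control 1 and Cu 3, with 0.21 FPKM in Control 2 and 0.08 FPKM in Cu 1, and was not tested. The list thus did not move as one. As deposited, DNAJA1, HSP90AB1 and HSPB8 had Cu 1 above and Cu 3 below the Control libraries. HSPA4L and DNAJB4 were lowest in Cu 1 and highest in Cu 3.

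**Figure D5:**
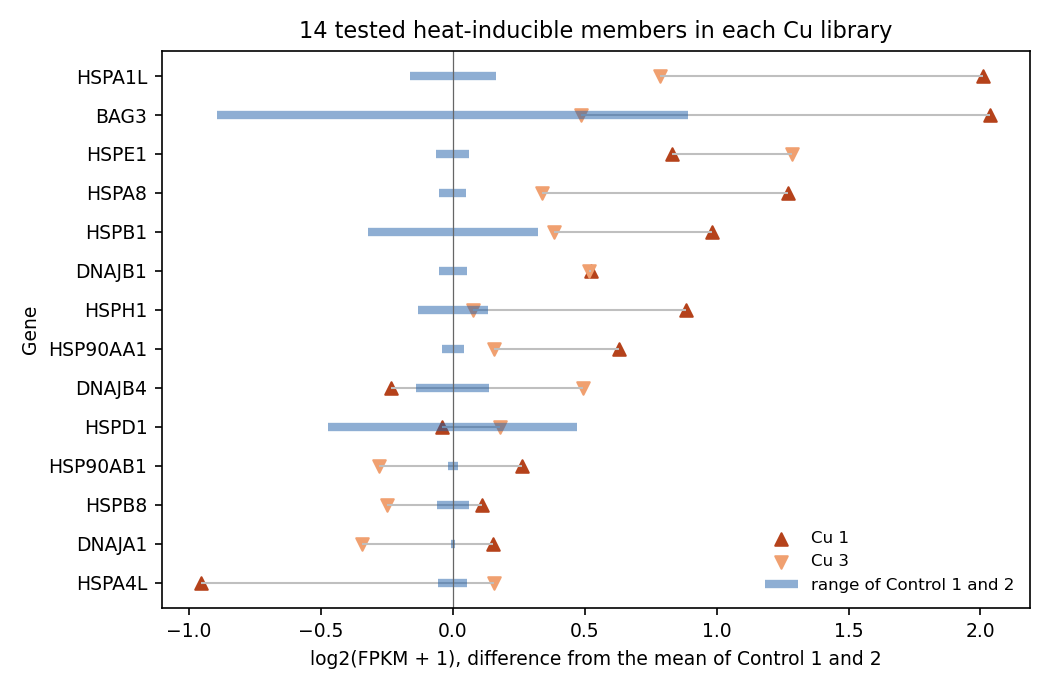
Difference of each Cu library from the mean of Control 1 and 2, on the log2(FPKM + 1) scale (horizontal axis), for the 14 tested heat-inducible chaperone genes, ordered by mean difference. Blue bars span the Control libraries. Cu 1 was the highest of the 4 libraries in 10 of the 14 genes, and the Cu libraries nearly coincided only in DNAJB1.

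Beyond the families, 56 other genes of the chaperone pathway were listed, including heat shock factors, HSP90 co-chaperones, prefoldin and mitochondrial proteases, and 42 were tested. Of these, 4 were at an unadjusted p of 0.05 or less, all higher in the Cu group, among them HSP70.2 (1.16, SE 0.46, adjusted p 0.685). Over all genes the share at this limit was 7.01%. The Cu libraries were both higher in 17, or 40.5%, and both lower in 2, or 4.76%, where all genes gave 25.4% and 13.4%. The median log2 fold change was 0.43. STUB1, 1 of the 17, passed the filter only through the Cu libraries. Under the 3 scalings 11 or 12 of the 42 were higher and 4 lower, and the median was 0.21 to 0.26. Of all genes, 16.7% to 19.2% were higher and 19.8% to 22.8% lower after these scalings. The highest was PFDN6, a subunit of the prefoldin complex that hands actin and tubulin to CCT, at 34.43 and 32.08 FPKM in the Control libraries and 145.98 and 82.98 FPKM in the Cu libraries (1.70, SE 0.37, adjusted p 0.631). NAA38, on the list but known as a subunit of an N-terminal acetyltransferase rather than as a chaperone, followed with 6.32 and 6.53 FPKM compared with 28.42 and 14.27 FPKM. NUDC, a co-chaperone of HSP90, was at 3.87 and 3.48 FPKM in the Control libraries and 19.47 and 5.88 FPKM in the Cu libraries. In PFDN6, NAA38 and NUDC alike Cu 1 was the highest library.

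At the low end, AHSA1, the activator of the HSP90 ATPase, was at 694.66 and 731.26 FPKM in the Control libraries and 651.84 and 468.16 FPKM in the Cu libraries. CLPX, the unfoldase of the mitochondrial ClpXP protease, was at 39.88 and 39.48 FPKM, and 32.38 and 33.16 FPKM in the Cu libraries. These were the 2 genes with both Cu libraries below both Control libraries. CLPB, a mitochondrial disaggregase, was at 1.22 and 1.59 FPKM, and 1.49 and 0.65 FPKM in the Cu libraries, and overlapped. HSF1, the main transcription factor of the heat shock response, was at 1.5 and 2.06 FPKM in the Control libraries, 5.56 FPKM in Cu 1 and 2.38 FPKM in Cu 3 (0.77, SE 0.45, adjusted p 0.748). HSF2 was below 1 FPKM in every library.

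The authors' group means, which take in more than the libraries analysed here, gave the chaperone genes a median log2 ratio of 0.27, with 47 genes higher and 19 lower in the Cu group, compared with 0.11 over all genes tested. Of the 26 genes that were higher in both Cu libraries, 24 also had the higher mean in the Cu group, the exceptions being DNAJC19 and DNAJC21. For 11 of the 26 the authors' Control mean lay above both Control libraries analysed here, and for 8 their Cu mean lay below both Cu libraries. DNAJC15 had an authors' mean of 1012 FPKM for Control, above both Control libraries analysed here. Its mean for Cu was 2066 FPKM, below both Cu libraries. The distance between its groups was thus smaller by these means. If each mean was taken over 3 libraries, the Cu library not analysed here lay below the Control library not analysed here. The DNAJC15 groups then overlap.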

How the data were processed

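The authors deposited FPKM for 4 Smart-seq2 libraries, rounded to 2 decimals, and their mean FPKM per group, used only as such. The paper's methods name SOAPnuke, HISAT2, Bowtie2 and RSEM, whereas the submitters' processing notes name TopHat2 2.0.13, Cufflinks 2.2.1, Cuffnorm and Cuffdiff with Sscrofa11.1. Which of them made the FPKM is not known. The paper's count test could not be used on FPKM. Of 30684 rows, 16050 held values. A gene was tested when 2 or more libraries reached 1 FPKM, which left 8541 genes. Their log2(FPKM + 1) was fitted in R 4.3.3 by limma 3.58.1 (lmFit, then eBayes with trend), and p-values were adjusted by Benjamini-Hochberg over all of them. The added 1 makes fold changes of weakly expressed genes smaller. The fit was tested on simulated data. Depth is unknown, so no intervals from counts are given, and how precisely low levels were measured is not known. The samples share no batch label. Positions and overlapping genes are from RefSeq (Sscrofa11.1), in which all 84 genes matched by identifier.

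The members and lists were chosen with earlier results of these data known. Named by rule were all HSP90, HSP110, mitochondrial chaperonin and CCT genes, the 3 most abundant of each other family, the 6 largest and 6 smallest fold changes among separated genes, the heat-inducible list, and the 3 highest and 3 lowest of the other pathway list. HSPA2, DNAJB6, DNAJC10, DNAJC14, DNAJC18, DNAJC19, DNAJC24, HSF1, HSF2, HSP70.2, STUB1 and the gene groups by compartment were chosen after their values were seen. Fold changes are printed only where the groups did not overlap. Alternatives were a pseudocount of 0.1, no filter, 1 FPKM in all 4 libraries, 3 scalings between libraries, no variance trend, leaving out each library, and, added after seeing the data, the authors' means.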

Additional observations from a re-analysis of the deposited data

How the results depend on the processing

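No paired analysis was possible because the groups share fewer than 2 replicate numbers. Leaving out 1 library leaves a group with 1 sample, which is assumed to vary like the others. A pseudocount of 0.1 gave 4 genes higher past both limits in place of 2. At an unadjusted p of 0.05 it left the same 8 genes higher, where all genes gave 5.66%. When a library was left out, the number of genes at either limit moved in both directions. These numbers are not read as a result. Genes higher in both Cu libraries numbered 16 (24.2%) after quantile normalization, where all genes gave 16.7%. When a library was left out they numbered 30 to 49 (without Cu 3), or 45.5% to 74.2%, where all genes gave 35.2% to 58.1%. Genes lower in both numbered 9 (13.6%) after quantile, upper-quartile or median-of-ratios scaling, where all genes gave 19.8% to 22.8%. When a library was left out they numbered 4 to 18 (without Cu 1), or 6.06% to 27.3%, where all genes gave 19.5% to 37.1%. Fewer libraries have to be separated then. The median log2 fold change of the 66 genes was 0.14 after quantile normalization and 0.14 to 0.46 without each library. The HSP70 median was 0.54 without the filter and 0.62 from the authors' means. The DNAJC median was 0.086 after quantile normalization, 0.13 after either other scaling, 0.19 from the authors' means and 0.21 to 0.41 without each library. The heat-inducible median was 0.26 with 1 FPKM in all libraries, 0.26 after upper-quartile or median-of-ratios scaling, and 0.26 to 0.58 without each library. Without each library the medians of DNAJB, BAG and CCT were 0.13 to 0.63, -0.16 to 1.38 and -0.0034 to 0.39. DNAJC21 reversed to -0.049, -0.095 and -0.093 under the scalings and to -0.50 by the authors' means, and DNAJC19 to -0.097 by the authors' means. The other 27 of the 29 separated genes kept their direction under every alternative run. Over all 8541 genes the adjusted calls were 0 except without Cu 1 (186 genes) and without Cu 3 (1755 genes). Beyond the numbers of genes or libraries left in, the cause was not tested.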
